A study of Homo sapiens with 6 samples.

Results

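Integrin subunit genes were examined in RNA-seq of the colorectal cancer cell line HCT116. The 10 genes described are ITGA2, ITGA3, ITGA5, ITGA6, ITGAV, ITGB1, ITGB4, ITGB5, ITGB6 and ITGB8, taken by symbol from 26 human integrin subunit genes and 56638 gene symbols counted. The members were chosen by symbol with their counts per library and their differences between the groups of this contrast already known, so the differences of these 10 genes between groups are given as a description. The rule states no threshold: it holds ITGB6, at 0.524 CPM (counts per 1e6 TMM-scaled reads) in the controls, and leaves out ITGAE at 20.5 CPM and ITGA7 at 13.8 CPM.

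The study compared 3 libraries of control cells with 3 libraries labelled ZFP90 knockout (KO). ZFP90 is a KRAB-family zinc-finger protein, and the guide RNAs were directed at exon 3 of its gene. All cells were HCT116 at passage 16 to 19, in the same medium. The labels do not give what the control cells received, nor whether the replicates were separate cultures or clones, so errors and p-values cover the spread among these libraries alone, and that spread may be technical. Each library held 13424356 to 17012910 reads in genes. ZFP90 RNA itself was higher in the libraries labelled knockout, with 1438, 1135 and 1372 reads against 770, 720 and 577 in the controls, and gene counts do not show whether its reading frame was changed. Directions below are therefore those of the libraries as labelled. In bulk RNA, fewer cells that express a gene and less of its RNA per cell cannot be told apart.

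The epithelial identity of the cells was checked with 9 marker genes, of which 6 (EPCAM, CDH1, KRT8, KRT18, KRT19 and CDX2) passed the count filter. The 9 summed to 2713 to 2846 CPM in the controls and 2686 to 2808 CPM in the libraries labelled knockout. CDX1 had no reads, and VIL1 and LGALS4 averaged 0.088 and 0.174 CPM in the controls. The 8 leukocyte markers summed to between 1.33 and 1.99 CPM over all 6 libraries, CD3E had no reads, and none passed the count filter. The 8 fibroblast markers summed to between 75.7 and 96.5 CPM in the controls, against 76.3 to 98.1 CPM under the knockout label. Most of each sum was COL1A1 alone, at 66.6 to 84.7 CPM in the controls against 66.8 to 82.9 CPM. COL1A2 and COL3A1 ranged from 1.85 to 7.20 CPM over all 6 libraries. DCN, LUM, PDGFRA, PDGFRB and ITGA11 each stayed under 1 CPM in every library. With the controls first, the 8 markers of endothelium and platelets summed to between 8.39 and 9.78 CPM and between 9.55 and 12.2 CPM. PECAM1 and PF4 had no reads. Of these 8, 5 passed the count filter, so passing it does not by itself tell the cell types apart.

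An integrin is a pair of membrane-spanning proteins, an alpha and a beta subunit, that holds a cell to the matrix outside it. Most beta tails recruit talin and kindlin and so join the matrix to actin, whereas the long ITGB4 tail joins it to keratin filaments in hemidesmosomes. In gut epithelium, ITGA2 with ITGB1 binds collagen, ITGA3 with ITGB1 and ITGA6 with ITGB4 bind laminin, ITGA5 with ITGB1 binds fibronectin, and ITGAV pairs with ITGB1, ITGB3, ITGB5, ITGB6 or ITGB8 to bind ligands that carry an RGD motif, latent TGF-beta among them.

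Of the 10 genes, 9 passed the count filter. ITGA2 was higher in the libraries labelled knockout, and ITGA3, ITGA6, ITGAV, ITGB1, ITGB5 and ITGB8 were lower. A gene was called where edgeR's adjusted p over all genes tested was under 0.05. By that rule 1 subunit was called higher and 6 lower, ITGA5 and ITGB4 were not called, and ITGB6 was too low to fit. Over all 16369 genes tested 21.1% were called, 9.73% higher and 11.4% lower. Of these calls 46.1% were higher, and 29.6% were with scaling by library size only. Since the subunits were listed with this contrast known, nothing is read from their count. The 3 libraries of each group did not overlap for 1 subunit that was higher and 7 that were lower, where 41.2% of all genes tested did not overlap. The log2 fold changes of the 9 subunits ran from -2.25 to 0.38 with a median of -0.26, where the median over all genes tested was 0.01.

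**Figure D1:**
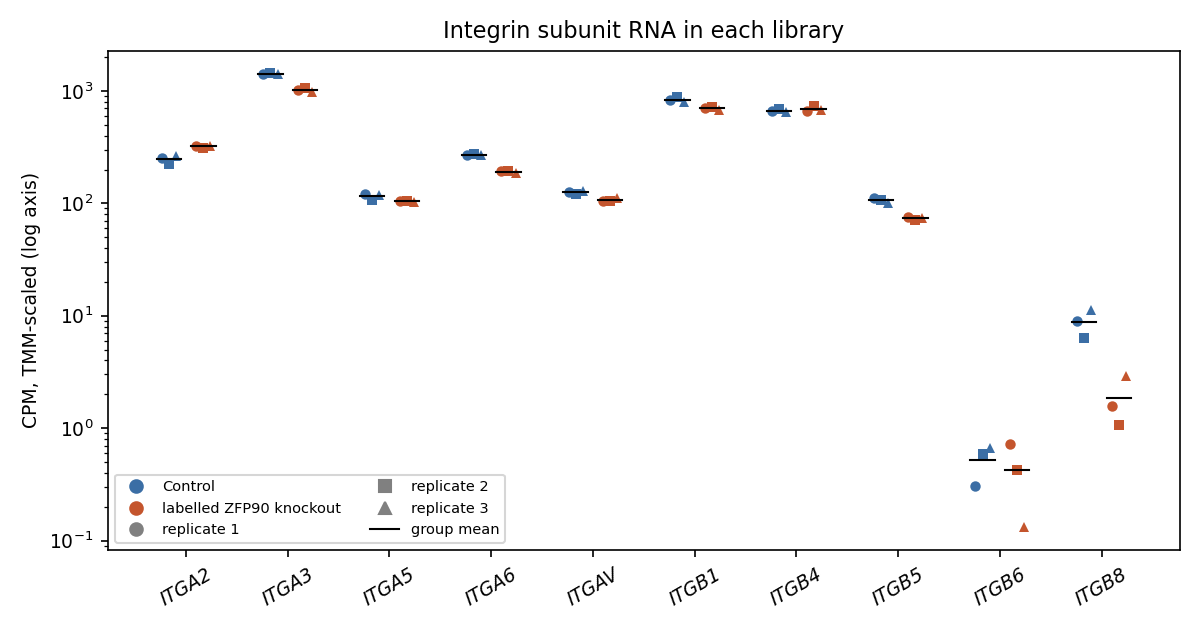
CPM on a log axis of the 10 integrin subunits in each library, controls in blue and libraries labelled ZFP90 knockout in orange, with 1 marker shape per replicate and a line at the group mean. ITGB8 shows the widest gap, from a control mean of 8.87 CPM to 1.84 CPM, while ITGB4 and ITGB6 overlap between the groups.

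The laminin-binding alpha subunits were lower. ITGA3 (ENSG00000005884.17; chromosome 17, 50055968 to 50090481, plus strand; GRCh38, GENCODE release 29) measured 1416, 1431 and 1419 CPM in control replicates 1 to 3 and 1023, 1059.6 and 978 CPM in replicates 1 to 3 labelled knockout. The 3 controls lay close together and the groups did not overlap. Its log2 fold change was -0.48 (SE 0.053). ITGA6 (chromosome 2, 172427354 to 172506282, plus strand), the laminin receptor chain shared by ITGB1 and ITGB4, measured 268, 277 and 270.3 CPM in the controls against 195, 192 and 184 CPM. All 3 libraries labelled knockout lay below all 3 controls, with a log2 fold change of -0.51 (SE 0.046). There were 19.1 ± 0.217 ITGA6 reads per 100 ITGA3 reads in the controls and 18.7 ± 0.482 in the libraries labelled knockout (SD, n = 3), and this ratio overlapped between the groups.

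The collagen-binding subunit ITGA2 (ENSG00000164171.10; chromosome 5, 52989326 to 53094779, plus strand) was the one member called higher. It measured 253, 226 and 265 CPM in the controls and 326, 312 and 327 CPM in the libraries labelled knockout. The groups did not overlap, control replicate 2 was the lowest library, and the log2 fold change was 0.38 (SE 0.063). A ratio of reads within a library needs no scaling between libraries. There were 17.9, 15.8 and 18.6 ITGA2 reads per 100 ITGA3 reads in the controls and 31.8, 29.4 and 33.4 in the libraries labelled knockout. The mean of this ratio was thus 17.4 ± 1.49 against 31.6 ± 2.02 (SD, n = 3), with every library labelled knockout above every control.

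The fibronectin receptor chain ITGA5 (chromosome 12, 54395261 to 54419460, minus strand) measured 122, 107 and 119 CPM in the controls against 105, 104 and 103 CPM. The groups did not overlap, but the highest library labelled knockout lay close to control replicate 2, and ITGA5 was not called (log2 fold change -0.15, SE 0.059). Without control replicate 2 its log2 fold change was -0.21 and it was called; it was also called with scaling by library size only, at -0.22. ITGAV (chromosome 2, 186590065 to 186680901, plus strand), the alpha chain of the RGD-binding receptors, measured 127, 122 and 129 CPM in the controls against 106, 104 and 111 CPM. The groups did not overlap and the log2 fold change was -0.24 (SE 0.051), but ITGAV was not called without replicate 1 labelled knockout (-0.23).

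ITGB1 (ENSG00000150093.18; chromosome 10, 32900319 to 33005792, minus strand) is the beta chain with the most alpha partners. It measured 829, 875 and 801 CPM in the controls and 699.6, 722 and 676 CPM in the libraries labelled knockout, without overlap. The log2 fold change was -0.26 (SE 0.054), and ITGB1 was not called without replicate 1 labelled knockout (-0.26) or without replicate 3 labelled knockout (-0.23). A pseudogene listed as ITGB1P1 drew 2378 to 3075 reads in the controls and 2312 to 2765 in the libraries labelled knockout, which equals 22.3 ± 0.520 reads per 100 ITGB1 reads in the controls and 23.3 ± 0.587 in the libraries labelled knockout (SD, n = 3). Reads of ITGB1 and its pseudogene may be split by the counting, so the ITGB1 level is uncertain; the log2 fold change of ITGB1P1 was -0.20 (SE 0.051). Summed, ITGB1 and ITGB1P1 measured 1019, 1066 and 979 CPM in the controls against 867, 886 and 833 CPM, again without overlap.

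ITGB4 (ENSG00000132470.13; chromosome 17, 75721328 to 75757818, plus strand), the hemidesmosome subunit, measured 657, 687 and 644 CPM in the controls and 663, 736 and 679.6 CPM in the libraries labelled knockout. The groups overlapped, and the log2 fold change of 0.06 (SE 0.057) was not called; with scaling by library size only it was 0.00. ITGA6 is the alpha partner of ITGB4. There were 40.8, 40.4 and 42.0 ITGA6 reads per 100 ITGB4 reads in the controls and 29.5, 26.1 and 27.1 in the libraries labelled knockout, so that the ratio of this pair was 41.1 ± 0.838 against 27.6 ± 1.72 (SD, n = 3). The 2 groups did not overlap in this ratio.

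The beta subunits that pair with ITGAV alone were ITGB5, ITGB6 and ITGB8. ITGB5 (chromosome 3, 124761948 to 124901418, minus strand), a vitronectin receptor chain, measured 112, 108 and 100.3 CPM in the controls and 76.2, 70.6 and 73.7 CPM in the libraries labelled knockout. The groups did not overlap, and the log2 fold change was -0.54 (SE 0.059). ITGB6 (chromosome 2, 160099666 to 160200313, minus strand), an epithelial activator of latent TGF-beta, had 5, 9 and 9 reads in the controls and 12, 6 and 2 reads in the libraries labelled knockout. These counts overlapped, and the lowest was below 3 reads, the limit that a count of 0 allows, which equals 0.181 to 0.224 CPM and covers counting error only. Another gene shares 20.6% of the ITGB6 exon bases. A difference in ITGB6 was not detectable at this depth.

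ITGB8 (ENSG00000105855.9; chromosome 7, 20330702 to 20415754, plus strand), like ITGB6 known to activate latent TGF-beta, had the largest log2 fold change of the 9. It had 145, 97 and 151 reads in the controls and 26, 15 and 44 reads in the libraries labelled knockout. In CPM these were 8.95, 6.38 and 11.3 against 1.57, 1.06 and 2.88. The highest library labelled knockout lay below the lowest control, and the mean was 8.87 ± 2.45 against 1.84 ± 0.937 CPM (SD, n = 3). The log2 fold change of -2.25 (SE 0.32) corresponds to a level 4.76-fold higher in the controls. Leaving out 1 library at a time gave log2 fold changes between -2.72, without replicate 3 labelled knockout, and -2.00, without replicate 2 labelled knockout.

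On chromosome 7 control replicate 2 was low: the median over 666 tested genes was 80.5% of the level in the other controls, and it was 102% to 103% on the chromosomes of the other 9 subunits. For ITGB8 it lay 0.64 below the other controls on the log2 scale of CPM, and its 50 nearest tested genes lay 0.29 below. Leaving this library out, the log2 fold change of ITGB8 was -2.44, and with that library corrected by a running median over 51 genes it was -2.33. The median log2 fold change of the 50 nearest genes was -0.06, with 4 called higher and 14 lower. The shares over all genes tested were 9.73% higher and 11.4% lower, so calls of lower genes were more frequent near ITGB8.

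**Figure D2:**
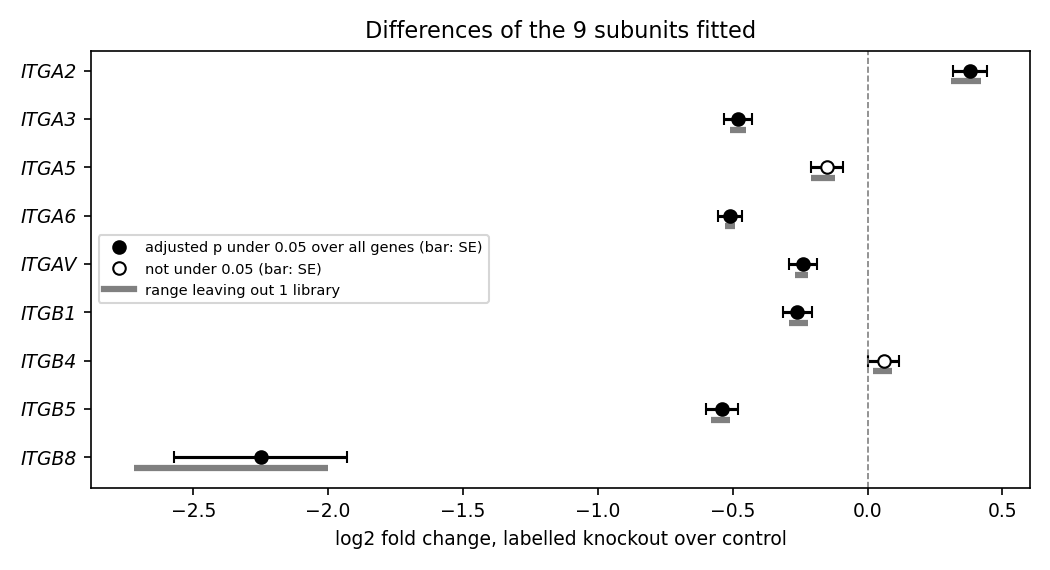
Log2 fold change of the 9 subunits fitted, libraries labelled knockout over control, with bars for the SE and a grey bar for the range when 1 library is left out; filled points had an adjusted p under 0.05 over all genes. ITGB8 stands at -2.25, ITGA2 at 0.38 on the other side of 0, and no range crosses 0.

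Upstream sequences are shown for the subunit with the widest difference (ITGB8), the one called higher (ITGA2) and the one with the fewest reads (ITGB6). They are the stretches of the RefSeq promoter windows (GRCh38.p14) that lie before any exon of GENCODE release 29, read 5′ to 3′ on the gene's strand, with motif matches in capitals. The ITGB8 stretch is chr7:20330650-20330701 (plus strand), that of ITGA2 is chr5:52989102-52989325 (plus strand), and that of ITGB6 is chr2:160200314-160200522 (minus strand).
ITGB8: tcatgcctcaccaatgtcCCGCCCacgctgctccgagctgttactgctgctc
ITGA2: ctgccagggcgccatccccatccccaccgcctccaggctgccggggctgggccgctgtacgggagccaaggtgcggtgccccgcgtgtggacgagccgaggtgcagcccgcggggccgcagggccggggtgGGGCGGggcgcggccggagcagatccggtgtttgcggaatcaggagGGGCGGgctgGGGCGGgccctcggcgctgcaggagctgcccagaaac
ITGB6: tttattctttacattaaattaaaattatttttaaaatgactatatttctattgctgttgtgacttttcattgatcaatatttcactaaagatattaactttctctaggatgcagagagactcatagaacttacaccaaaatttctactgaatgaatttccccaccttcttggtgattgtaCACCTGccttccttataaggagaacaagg
In ITGB8 and ITGA2 the capitals mark the GC box GGGCGG on either strand, the sequence bound by SP1-family factors. In ITGB6 they mark CACCTG, an E-box bound by ZEB and SNAI factors.

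The 250 bases upstream of each RefSeq start were compared over 13 windows of 8 subunits; ITGA3 and ITGB4 had no entry. The ITGB6 window had the lowest G and C content of the 13, at 30% with no CpG. A window of ITGAV (40.8%, 1 CpG) and a window of ITGB1 (41.6%, 4 CpG) came next, while those of ITGB8 (71.2%, 21 CpG) and ITGA2 (76.4%, 26 CpG) were among the richer ones. The median over all 35116 windows was 58.0% G and C. The GC box was found in 7 of the 13 windows and in 42.6% of all windows, and CACCTG in 3 of 13 and 17.5%. The TATA box TATAAA was found in 2 of 13 and 10.7%, while TGANTCA (the AP-1 site) and the CRE TGACGTCA were found in 0 of 13, against 6.57% and 1.65% of all windows. Both strands were searched, and several windows belong to 1 gene. The printed stretches leave out the part of each window inside an exon, with 1 further GC box each for ITGB8 and ITGA2. The windows compared keep that part, which covered 198 of 250 bases for ITGB8, 26 for ITGA2 and 41 for ITGB6. For ITGB8 the G and C content is thus mostly that of exon sequence. A match describes letters, and neither a match nor its absence says whether a factor binds.

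Levels of different genes were compared as CPM per kilobase (kb) of exon, over the union of each gene's exons. In the controls ITGA3 (145 ± 0.838), ITGB1 (139 ± 6.20) and ITGB4 (98.0 ± 3.25 CPM per kb; SD, n = 3) led, followed by ITGA6 at 41.6 and ITGA2 at 31.3. ITGB5, ITGAV and ITGA5 lay at 16.5, 15.3 and 15.3, and neighbours among these 3 overlapped. ITGB8 at 0.585 and ITGB6 at 0.112 CPM per kb were far below. ITGA3 and ITGB1 also overlapped in the controls. In the libraries labelled knockout the order was ITGB1 (116 ± 3.83), ITGA3 (104 ± 4.15) and ITGB4 (102 ± 5.69 CPM per kb), where ITGA3 and ITGB4 overlapped. ITGA2 at 40.6 stood above ITGA6 at 29.2, the reverse of the controls, and in neither group did these 2 overlap. ITGB8 at 0.121 and ITGB6 at 0.0911 CPM per kb overlapped in these libraries but not in the controls. With the longest transcript as length, ITGA2 again lay below ITGA6 in the controls (31.5 against 48.4) and above it in the libraries labelled knockout (40.8 against 33.9). ITGA3 and ITGB1 then overlapped in the libraries labelled knockout, at 186 and 185 CPM per kb.

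The make-up of the subunit RNA moved with these values. Of the 5 alpha subunits per kb, ITGA2 made up 12.6% ± 0.888 in the controls and 20.3% ± 0.839 in the libraries labelled knockout (SD, n = 3). ITGA3 made up 58.4% ± 0.908 against 51.9% ± 1.19, and ITGA6 16.7% ± 0.444 against 14.5% ± 0.223. None of these 3 shares overlapped between the groups. ITGAV, at 6.17% ± 0.131 and 6.49% ± 0.354, did overlap. Among the 5 beta subunits ITGB4 made up 38.6% ± 0.265 in the controls and 44.5% ± 1.06 in the libraries labelled knockout, and ITGB1 54.7% ± 0.345 against 50.5% ± 0.774, both without overlap. The sum of the alpha subunits over that of the beta subunits was 0.980 ± 0.0476 in the controls and 0.871 ± 0.0230 in the libraries labelled knockout. The size of these shares and of this ratio depends on the length chosen. For ITGA3 the union of exons was 9802 bases and the longest transcript 5479. The shares and the ratio were not computed with the longest transcript, and ITGB1P1 reads are not in the beta sum. The 10 subunits held 98.0% of the RNA of all 26 subunit genes per kb in each group. They held 0.388% ± 0.0192 of all reads in genes in the controls and 0.313% ± 0.00804 in the libraries labelled knockout (SD, n = 3).

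**Figure D3:**
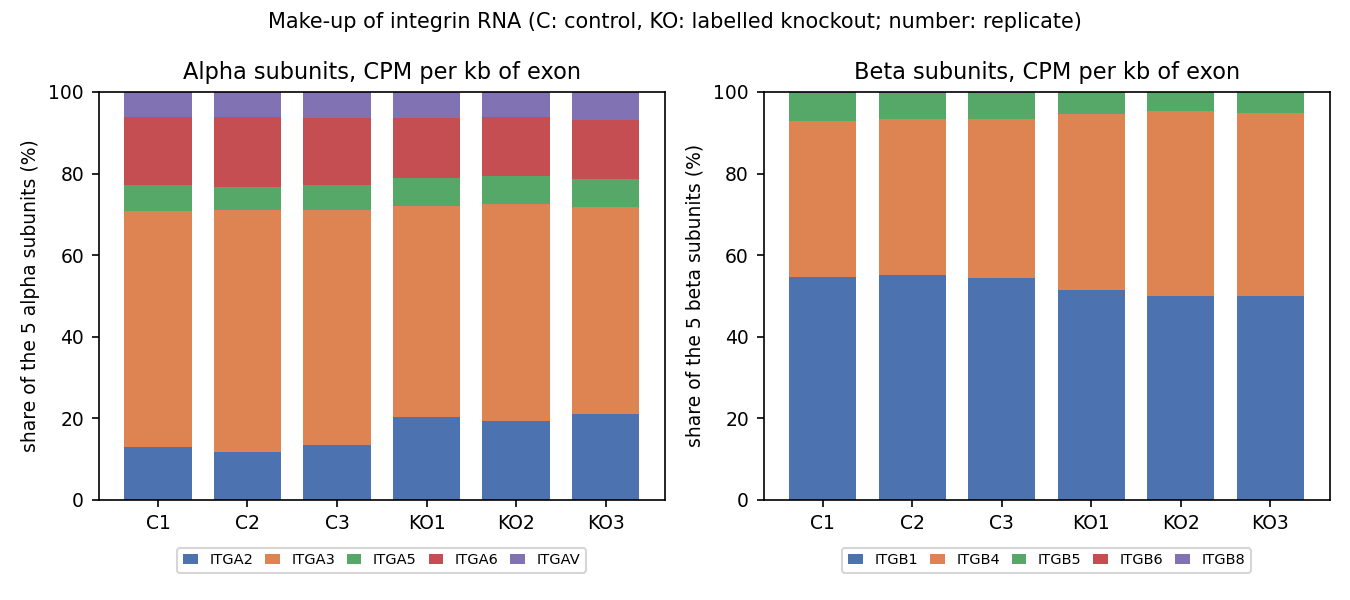
Share of each subunit among the 5 alpha (left) and 5 beta subunits (right) in each library, in percent of CPM per kb of exon. The ITGA2 band widens from 12.6% to 20.3% and the ITGB4 band from 38.6% to 44.5%; ITGB6 and ITGB8, each under 0.4% of the beta sum, are too thin to see.

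Among the 3 beta subunits that pair with ITGAV alone, ITGB8 made up 3.28%, 2.43% and 4.52% per kb in the controls and 0.858%, 0.631% and 1.63% in the libraries labelled knockout, without overlap. ITGB5 held the rest almost entirely, at 95.9% ± 1.17 and 98.2% ± 0.349 (SD, n = 3). ITGB6 held 0.656% ± 0.261 and 0.779% ± 0.522, with overlap.

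The 5 genes outside the family that were most like ITGB8 over the 6 libraries, by Pearson correlation of log2 CPM among 11677 genes of at least 5 CPM, were STXBP4 (0.9995), CHRD (0.9979), SLC25A23 (0.9978), JADE2 (0.9965) and CPT1A (0.9963). CHRD, which encodes the BMP antagonist chordin, measured 11.7, 10.1 and 12.5 CPM in the controls and 6.40, 5.96 and 7.79 CPM in the libraries labelled knockout. The log2 fold changes of the 5 genes lay between -0.76 and -0.25, smaller than that of ITGB8. With 2 groups of 3 libraries, and shared libraries for all genes, these values describe likeness over 6 points only.

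Of the 16 integrin subunits outside the list, 10 passed the count filter and 2 were called by edgeR, both lower. The share called among all genes tested was 21.1%, with 11.4% lower, and nothing is read from 2 of 10. The median log2 fold change of the 10 subunits was -0.36, and it was -0.23 without control replicate 1 and -0.21 without control replicate 3. ITGAX, a leukocyte alpha chain, fell from 6.09 ± 0.287 to 3.28 ± 0.747 CPM (SD, n = 3), a log2 fold change of -0.90 (SE 0.18; edgeR adjusted p = 0.00889). ITGA7, a laminin receptor chain best known in muscle, fell from 13.8 ± 1.08 to 9.07 ± 1.16 CPM (-0.60, SE 0.12; edgeR adjusted p = 0.00881). ITGAE at 20.5 CPM in the controls, ITGA10, ITGB7, ITGA2B, ITGB3, ITGA1, ITGA9 and ITGAD were not called, with log2 fold changes between -0.62 and 0.39. ITGA10 was called without control replicate 2 (-0.74), when 3 subunits were lower, and with no filter on low counts (-0.52). ITGB7 was called with scaling by library size only (-0.54) and with control replicate 2 corrected along the genome (-0.45). In GENCODE release 29, other genes share 42.1% of the exon bases of ITGB7 and 51.6% of those of ITGB3, so their counts are uncertain. ITGA4, ITGA8, ITGA11, ITGAL, ITGAM and ITGB2 averaged under 1 CPM in each group and were not tested. The leukocyte markers beside which ITGAX is usually found summed to between 1.33 and 1.99 CPM, and their part in its change was not tested.

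Ligands, tail binders, adaptors and membrane partners were listed beside the 16 other subunits, 102 genes in all. Of these, 88 were tested, 8 called higher and 26 lower, with a median log2 fold change of -0.14. Over all genes tested 9.73% were called higher and 11.4% lower. The lists were chosen with earlier results of these data known. Nothing is therefore read from their counts, here or list by list below, and the adjusted p-values of listed genes serve as description. Leaving out each library in turn gave 6 to 10 higher and 19 to 32 lower, and a median of -0.08 without control replicate 3.

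**Figure D4:**
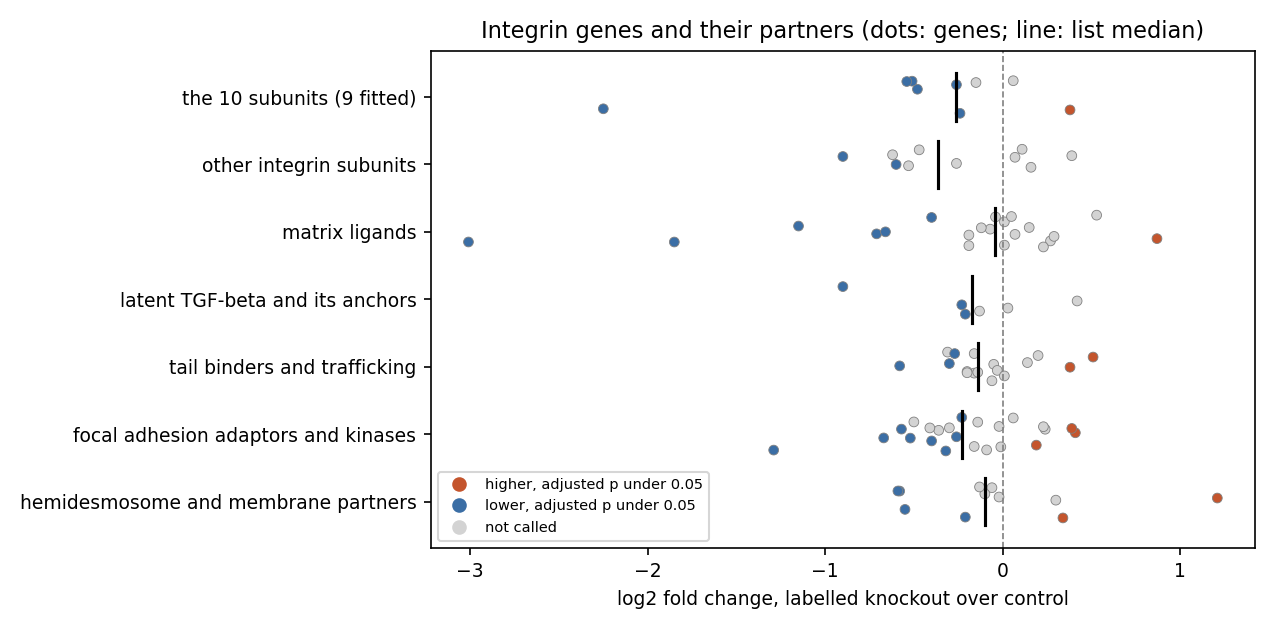
Log2 fold change (libraries labelled knockout over control) of each tested gene in the 7 lists, orange for called higher, blue for called lower and grey for not called, with a line at each list's median. The ligand list reaches furthest, to -3.01 for LAMA4.

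Of 25 matrix ligands 21 were tested, 1 higher and 6 lower. The list median of -0.04 had no stable sign: leaving out control replicate 3 gave 0.06 and control replicate 1 gave -0.08, while of the libraries labelled knockout replicate 2 gave 0.02 and replicate 3 gave -0.08. The alpha chain of laminin-332, LAMA3, fell from 29.8 ± 3.78 to 13.3 ± 2.51 CPM (SD, n = 3), a log2 fold change of -1.15 (SE 0.14; edgeR adjusted p = 9.33e-04). The beta chain LAMB3 measured 224 ± 16.3 and 248 ± 12.5 CPM and was not called (0.15, SE 0.064), except with control replicate 2 corrected along the genome (0.16). Laminin-332 is a ligand of ITGA3 with ITGB1 and of ITGA6 with ITGB4. LAMA4 fell from 38, 33 and 41 reads to 5, 3 and 6 reads (-3.01, SE 0.30), and CTGF, a matrix-associated growth factor, from 39, 22 and 28 reads to 7, 8 and 10 reads (-1.85, SE 0.30; edgeR adjusted p = 3.05e-04 and 0.00373). LAMA2 rose from 8.43 ± 2.30 to 15.4 ± 0.438 CPM (0.87, SE 0.17; edgeR adjusted p = 0.00905). LAMA2, LAMA4 and CTGF lie on chromosome 6, where control replicate 2 stood at 87.6% of the other controls; without it the log2 fold change of LAMA2 was 0.67, the log2 fold change of LAMA4 was -3.10 and the log2 fold change of CTGF was -2.04. Fibronectin (FN1), the ligand of ITGA5, measured 27.2 ± 4.64 and 25.7 ± 6.35 CPM and was not called (-0.07, SE 0.18). The collagen chain COL1A1, a ligand of ITGA2, measured 73.9 ± 9.51 and 74.3 ± 8.12 CPM (0.01, SE 0.10).

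Of 8 genes for latent TGF-beta and its anchors, 6 were tested and 3 were called by edgeR, all lower. The list median was -0.17, but leaving out control replicate 3 gave -0.11, and leaving out the library labelled knockout replicate 2 gave -0.07. LTBP3, a latent TGF-beta binding protein, fell from 322 ± 25.1 to 172 ± 5.30 CPM (SD, n = 3), a log2 fold change of -0.90 (SE 0.063; edgeR adjusted p = 4.11e-05). LTBP4 (-0.21) and TGFB1 (-0.23) were lower by less. TGFB1 was not called by DESeq2, with no filter on low counts, or without any 1 library other than control replicate 2, and LTBP4 not without any 1 library labelled knockout. The list then held 1 lower gene without any 1 library labelled knockout, and 2 without control replicate 1 or 3. TGFB3 (0.42, SE 0.23), TGFB2 and LTBP1 were not called.

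Of 18 proteins that bind integrin tails or move integrins through the cell, 17 were tested, 2 higher and 3 lower. The list median was -0.14, but -0.07 without control replicate 1 and -0.05 without control replicate 3. TLN2, a talin, rose from 20.2 ± 0.627 to 28.6 ± 1.22 CPM (SD, n = 3), a log2 fold change of 0.51 (SE 0.072; edgeR adjusted p = 0.00178). FERMT1, the epithelial kindlin, rose from 108 ± 5.23 to 140.2 ± 1.58 CPM (0.38, SE 0.051; edgeR adjusted p = 0.00144). The endocytic adaptor NUMB fell by 0.30 on the log2 scale and DAB2 by 0.58. DAB2 was not called without control replicate 1 (-0.54) or replicate 1 labelled knockout (-0.53), and the list held 2 higher and 1 lower without control replicate 1. TLN1, the main talin, measured 180.2 ± 36.0 and 207 ± 4.62 CPM and was not called (0.20, SE 0.12), except with no filter on low counts (0.21). It lies on chromosome 9, where control replicate 2 stood at 70.3% of the other controls. Without that library the log2 fold change of TLN1 was 0.05, and with that library corrected along the genome it was 0.07.

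Of 24 focal adhesion adaptors and kinases 23 were tested, 3 higher and 8 lower, with a list median of -0.23. The scaffold paxillin (PXN) fell from 187 ± 2.79 to 131 ± 6.80 CPM (SD, n = 3), a log2 fold change of -0.52 (SE 0.052; edgeR adjusted p = 2.90e-04). The tensin TNS4 fell by 0.67, TNS1 by 0.57, and LIMS2, a partner of the kinase ILK, by 1.29 from 38, 33 and 25 reads to 12, 11 and 17 reads. The call of TNS1 was lost on leaving out control replicate 3 (-0.55) or, of those labelled knockout, replicate 1 (-0.48) or 2 (-0.51). The focal adhesion kinase PTK2 measured 199 ± 37.5 and 235 ± 3.30 CPM and was not called (0.24, SE 0.12), except with no filter on low counts (0.24). It lies on chromosome 8, where control replicate 2 stood at 75.1%. Without that library the log2 fold change of PTK2 was 0.09, and with that library corrected along the genome it was 0.11. Other genes share 78.5% of the exon bases of ILK, at 1.5 CPM in the controls, so its count says little. The list's counts moved with single libraries. Leaving out control replicate 3 gave 1 higher and 4 lower. Leaving out a library labelled knockout gave 1 higher with 5 lower for replicate 1, and 1 with 6 for replicate 2 or 3.

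Of 11 hemidesmosome and membrane partners, all tested, 2 were higher and 4 lower. The list median was -0.10, but leaving out control replicate 1 or 3 gave -0.06 or -0.05, and of the libraries labelled knockout replicate 1 gave -0.16 and replicate 2 gave -0.02. The hemidesmosomal collagen COL17A1, which binds ITGB4, rose from 6.64 ± 1.17 to 15.2 ± 3.24 CPM (SD, n = 3), a log2 fold change of 1.21 (SE 0.18; edgeR adjusted p = 0.00246). CD47, a membrane protein that associates with integrins, fell by 0.55, and the tetraspanins TSPAN4 and CD82 by 0.59 and 0.58. CD82 was not called by DESeq2 or without control replicate 1 or any 1 library labelled knockout. Leaving out control replicate 1, or replicate 2 or 3 labelled knockout, gave 2 higher and 2 lower. Plectin (PLEC), which ties ITGB4 to keratins, measured 1214 ± 144 and 1495 ± 125 CPM and was not called (0.30, SE 0.096). It also lies on chromosome 8, and PLEC was called higher by DESeq2 and limma-voom (0.30 by each), with no filter on low counts (0.31), without control replicate 2 (0.21) and with that library corrected along the genome (0.17).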

How the data were processed

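Total RNA of HCT116 cells (1 µg per library, Illumina TruSeq) was sequenced for 3 control libraries and 3 labelled ZFP90 knockout. The deposited values are counts per gene symbol; the submitters' processing notes name TopHat2 2.0.11, HTSeq and the builds hg19 and GRCh37, and the strand setting is not given in the sources used here, so reads of overlapping antisense genes may be included. HTSeq's summary lines, 31.7% to 32.37% of each file's total, were left out. Counts were filtered (filterByExpr, minimum 10 reads, total 15), scaled by TMM and tested with edgeR 4.0.16 (R 4.3.3; quasi-likelihood, all 6 libraries) with Benjamini-Hochberg adjustment over 16369 genes and a threshold of 0.05. CPM are counts per 1e6 TMM-scaled reads. Exon lengths and positions came from GENCODE 29 (GRCh38), not the counting build. Fits were also run on simulated counts, which did not include the low regions of control replicate 2. Nothing is read from the simulated counts here. Alternatives included DESeq2 1.42.0 and limma 3.58.1. The members and gene lists were chosen with earlier results of these data known. Named were all subunits, up to 4 called genes per list with the largest log2 fold change, genes that define a list, and the 5 genes most correlated with ITGB8 (at least 5 CPM, prior count 2). 1 listed gene is not reported here by name.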

Additional observations from a re-analysis of the deposited data

How the results depend on the processing

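Of all genes tested 3454 (21.1%) were called, and 1781 to 4622 with 1 library left out. There were 2170 without control replicate 1, 1781 without replicate 1 labelled knockout and 1918 without replicate 3 labelled knockout. Without control replicate 2 there were 4622 (27.7%), and 5011 (30.6%) with that library corrected along the genome. The share of 21.1% thus depends on which libraries are used, and it was higher without control replicate 2 or with that library corrected. Control replicate 2 was also low on chromosome X, at 53.6% of the other controls. At an adjusted p under 0.01, 1487 genes and 21 of the 34 pathway genes outside the 10 subunits were called; leaving out 1 library gave 25 to 42 pathway genes and 5 to 8 of the 10 subunits, against 7 with all libraries. The ITGB8 share among ITGB5, ITGB6 and ITGB8 differed by -2.37 percentage points, by -5.25 without division by exon length, and by -2.86 to -1.82 with 1 library left out. No sign of a called value reversed under the alternatives run. With the replicate number as a block, 3463 genes, 7 subunits and 34 pathway genes were called. Same-numbered libraries correlated at 0.0491, 0.145 and 0.0933 in their deviations from the group means, not all above 0.1, so the numbers were not taken as pairs, although each library correlated best with its own number. Depth limits ITGB6 most, at 2 to 12 reads per library.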
